A study of Mus musculus with 18 samples.

Results

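The transcriptome of CD44hi effector CD4+ T cells (Teff) was compared with that of CD44lo naive CD4+ T cells (Tnaive), both negative for GFP and for the Foxp3Timer reporter. These were 6 of the 18 RNA-seq libraries of the series, 3 per population, and 13190 of the 15402 genes in the table, those whose log2 values averaged 3 or more across the 18 libraries, were tested. All cells came from female mice of the strain C57/BL6 Foxp3Timer Foxp3-IRES-GFP, 5 to 10 weeks of age at sensitisation, whose abdominal skin had received 3% oxazolone 5 days earlier. Foxp3Timer is a fluorescent protein that reports transcription of Foxp3, the gene of the lineage factor of regulatory T cells (Treg), and the other 4 populations of the series were Timer+ cells sorted as Pers1 and Pers2 (persistent Foxp3 transcription), PAt and Arrested. Cells were sorted from the draining lymph nodes (dLN, inguinal and axillary), pooled over 3 mice for each replicate. The mice shared 1 treatment, and no unsensitised mice were part of the comparison. The CD44hi gate takes in recent effector cells as well as cells of memory phenotype, whatever their antigen.

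Naive CD4+ T cells circulate through lymph nodes, which they enter with the help of CCR7, and they stay out of cell cycle on signals from IL-7 and self peptide. After they recognise antigen, they divide, lose part of the recirculation programme, gain receptors for inflamed tissue or for the B cell follicle, and take on helper functions led by T-bet (type 1), GATA3 (type 2) or Bcl6 (follicular helper). CD44, a receptor for hyaluronan, stays high on cells that have been through this change. Oxazolone is a hapten that induces contact hypersensitivity when applied to skin.

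The deposited values are log2 of normalised counts, so a difference of 1 is a 2-fold difference, and values are compared here between populations and never between genes. A gene was called at an adjusted p under 0.05 with a log2 fold change over 1 in either direction, from limma over all 18 libraries. Replicates lay close together. Their pairwise correlations within a population ran from 0.9968 to 0.9986, and the Euclidean distance over the tested genes averaged 24.14 within Teff and 20.19 within Tnaive, against 93.34 (from 91.87 to 95.31) between the populations. Of the other populations, Arrested lay nearest to both, at 69.52 from Teff and 73.57 from Tnaive, and Pers2 lay farthest, at 79.71 from Teff and 117.2 from Tnaive.

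The sort markers were checked before other genes. Cd44 had log2 values of 13.05, 13.04 and 13.05 in Teff and 9.64, 9.47 and 9.72 in Tnaive. The Teff libraries were all higher, 10.9-fold on average. Foxp3 was present in both populations although the Timer+ cells had been gated away, with log2 values of 10.38, 10.59 and 10.64 in Teff and 11.27, 11.37 and 11.38 in Tnaive, and differed by less than 2-fold (log2 fold change -0.81, SE 0.068, adjusted p = 1.7e-09). The mean was 14.61 ± 0.067 in Pers1 and 14.42 ± 0.027 in Arrested (SD, n = 3). Cd4 differed by 0.61 and Cd3e, a chain of the T cell receptor complex, by 0.066 (adjusted p = 0.22), the latter with its sign turned to -0.02 when each library was centred on its median. As CD44 protein, Timer and GFP defined the gates, these levels are a check of the labels and not a result.

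Genes of other cell types moved with Teff. Of 97 tested genes in 10 lists of markers of other cell types, 63 were called higher in Teff and 2 lower. The 10 lists include that of plasmacytoid dendritic cells, which was written after values had been seen. Of all tested genes, 8.88% were called higher and 2.28% lower. Siglech, a receptor of plasmacytoid dendritic cells (pDC), had log2 values of 10.78, 10.93 and 10.16 in Teff and 3.93, 3.79 and 3.82 in Tnaive, and every Teff library was above every Tnaive library (log2 fold change 6.77, SE 0.22, adjusted p = 2.73e-16). The B cell receptor component Cd79a had log2 values of 9.89, 10.31 and 10.43 in Teff and 8.15, 8.19 and 8.30 in Tnaive (log2 fold change 2.00, SE 0.11, adjusted p = 1.34e-12). The linear values summed over the 17 dendritic cell markers, class II genes included, were 48370 to 64040 in Teff and 4677 to 6057 in Tnaive, with 14 of 17 called higher. For the 14 B cell markers the sums were 8545 to 12410 and 1439 to 1962, with 13 of 14 called higher. For the 14 myeloid markers they were 6191 to 7981 and 1166 to 1241, with 8 of 14 called higher. For 22 pDC markers, a list written after values had been seen, they were 21060 to 26100 and 10280 to 10870, with 17 of 22 called higher. NK cell markers summed to 2038 to 2480 in Teff and 1633 to 1826 in Tnaive, with 8 of 12 called higher and 2 lower, while Cd14, a defining monocyte gene, was near the bottom of the scale in both (means of 0.55 and 0.46). Of the smaller lists, CD8 T cell markers had 1 of 6 called higher and 1 lower (Cd8a 2.06), γδ and NKT cell markers 4 of 5 higher, markers of type 2 innate cells and mast cells 2 of 8 higher, stromal markers 2 of 6 higher and markers of red cells and platelets 0 of 2. Not analysed were 6 of 11 listed γδ and NKT genes, all of them γδ receptor genes, and Blk is also a B cell marker. Nor were 3 of 11 innate and mast cell genes, 10 of 16 stromal genes and 10 of 12 red cell and platelet genes. The part of such RNA in the results was not tested. Without the marker genes, an alternative added after seeing the data, 1108 genes were called higher and 299 lower. In bulk libraries, fewer cells of a type and less RNA per cell cannot be told apart.

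In all, 1171 genes (8.88%) were called higher in Teff and 301 (2.28%) lower, the shares to set beside the list counts below. For each of these 1472 genes the 3 Teff libraries lay entirely above or entirely below the 3 Tnaive libraries. Over all tested genes, called or not, the 3 Teff libraries lay above in 34.1% and below in 30.8%. The median log2 fold change over all tested genes was 0.0047. When the libraries were quantile normalised, 942 genes were higher and 550 lower, so that the share of higher genes among the calls went from 79.6% to 63.1%, with a median shift of -0.0832. Large differences lay mostly on the Teff side, with 188 genes over 8-fold higher (log2 fold change over 3) and 6 lower, and 66 against 1 beyond a log2 fold change of 4.

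**Figure D1:**
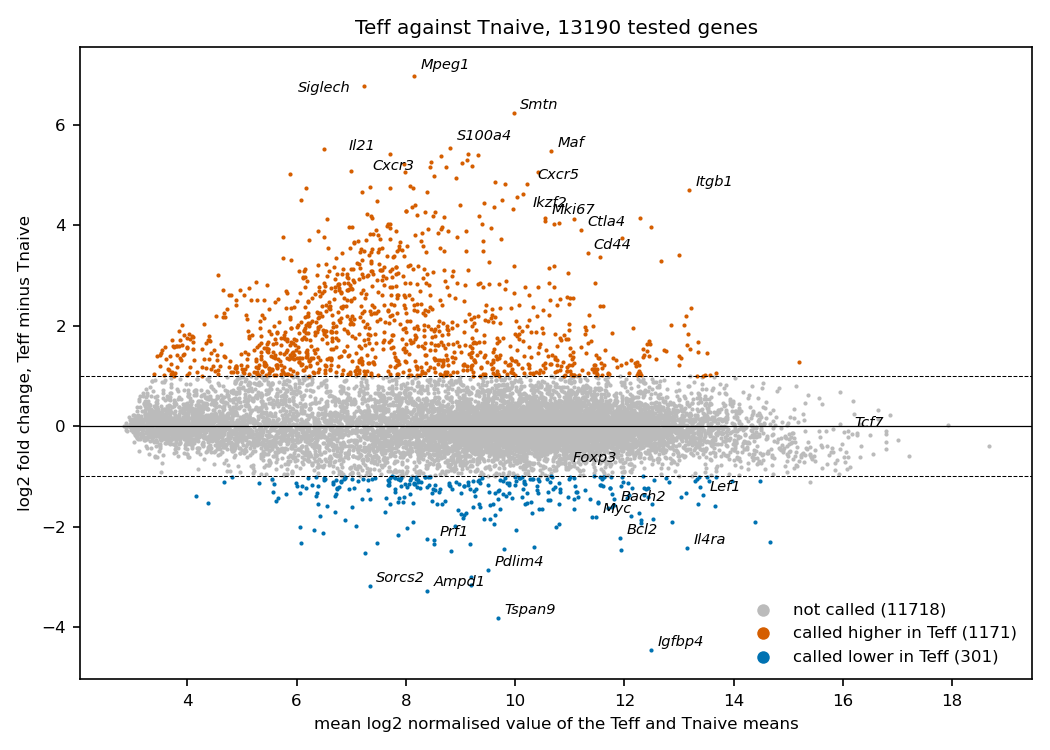
Log2 fold change between Teff and Tnaive (y axis) against the mean log2 normalised value of both populations (x axis), 1 point for each of 13190 tested genes, with called genes coloured and dashed lines at a log2 fold change of 1 and -1. The 1171 genes called higher reach 6.98 (Mpeg1), while the 301 called lower reach -4.46 (Igfbp4).

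The highest rises joined genes of several kinds. Among the 12 largest by the rule for named genes were Mpeg1 (log2 fold change 6.98), a pore-forming protein of macrophages and dendritic cells, Siglech (6.77), and Csf2rb2 (5.51), a receptor subunit of the IL-3 system. Genes known from T cells were also among them. Maf, a transcription factor of follicular and IL-10-producing T cells (chr8:115682942-115707794, GRCm38), had log2 values of 13.37, 13.28 and 13.54 in Teff and 7.87, 7.75 and 8.14 in Tnaive (log2 fold change 5.47, SE 0.097, adjusted p = 1.75e-20). The cytokine gene Il21 (chr3:37222759-37232636) had log2 values of 10.43, 10.25 and 10.60 in Teff and 4.84, 4.77 and 5.42 in Tnaive (log2 fold change 5.42, SE 0.17, adjusted p = 8.17e-17), and Cxcr3, a receptor that leads type 1 cells into inflamed tissue, had log2 values of 11.02, 11.06 and 11.20 in Teff and 6.11, 5.58 and 5.80 in Tnaive (log2 fold change 5.27, SE 0.12, adjusted p = 5.36e-19). These 3 were named for a large called difference without overlap, so their separation follows from the choice. Smtn (6.24), which encodes a protein of actin filaments, Synpo (5.41), another actin-associated gene, Angptl2 (5.41), Tox2 (5.38), and the calcium-binding S100a4 (5.53) and S100a6 (5.29) completed the group. S100a4 shares 51.7% of its exonic bases with Gm42674 on the same strand, so its value is uncertain.

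At the other end stood Igfbp4, which encodes a binding protein of insulin-like growth factors (chr11:99041244-99054392), with log2 values of 10.40, 10.13 and 10.25 in Teff and 14.79, 14.67 and 14.71 in Tnaive. It was 22.1-fold lower in Teff (log2 fold change -4.46, SE 0.13, adjusted p = 2.19e-17) and the only gene beyond -4. The next were Tspan9 (-3.83), a tetraspanin, Ampd1 (-3.27), a muscle-type AMP deaminase, Sorcs2 (-3.19), Ggt5 (-3.16), Amigo2 (-3.01), Pdlim4 (-2.87), Adamts14 (-2.53), Rgs11 (-2.49), Treml2 (-2.47) and Ly6c1 (-2.45), a surface antigen of part of the naive cells. Il4ra, the receptor chain that binds IL-4 and IL-13, had log2 values of 11.96, 11.95 and 11.88 in Teff and 14.42, 14.31 and 14.36 in Tnaive and was 5.41-fold lower in Teff (log2 fold change -2.43, SE 0.057, adjusted p = 8.65e-19).

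More genes tied to the naive state fell than rose. Of 32 tested members, 11 were lower and 3 higher, with a median log2 fold change of -0.61, and 24 were lower and 4 higher at adjusted p under 0.05 alone (all tested genes: 27.7% lower, 31.3% higher). Lef1, a transcription factor of the Wnt pathway that is high in naive T cells, had log2 values of 12.85, 12.64 and 12.78 in Teff and 14.11, 14.13 and 14.16 in Tnaive (log2 fold change -1.38, SE 0.05, adjusted p = 1.46e-15). Bach2, which restrains effector genes, had log2 values of 11.12, 11.05 and 10.90 in Teff and 12.64, 12.65 and 12.51 in Tnaive (log2 fold change -1.58, SE 0.075, adjusted p = 1.22e-13), and Il7r, the IL-7 receptor, had log2 values of 12.36, 12.38 and 12.25 in Teff and 13.69, 13.81 and 13.73 in Tnaive (log2 fold change -1.41, SE 0.11, adjusted p = 4.73e-10). In each of them the lowest Tnaive library was above the highest Teff library. Tcf7, the partner of Lef1, had log2 values of 16.04, 16.06 and 16.02 in Teff and 16.16, 16.12 and 16.14 in Tnaive, with a log2 fold change of -0.10 (SE 0.051, adjusted p = 0.0966) that became 0.28 after quantile normalisation. Tsc22d3, a glucocorticoid-induced inhibitor of activation, fell (-1.85).

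Of the genes of lymph node homing and exit, Ccr7 and Klf2 were called lower in Teff. Ccr7, the receptor for lymph node chemokines, had log2 values of 12.59, 12.50 and 12.33 in Teff and 13.93, 13.76 and 13.71 in Tnaive (log2 fold change -1.32, SE 0.077, adjusted p = 3.23e-12). S1pr1, the exit receptor, had log2 values of 13.49, 13.43 and 13.40 in Teff and 14.41, 14.36 and 14.39 in Tnaive and did not reach 2-fold (log2 fold change -0.95, SE 0.053, adjusted p = 1.76e-12), and Klf2, which drives S1pr1, fell (-1.08). The call of Klf2 was lost without replicate 1 of Tnaive (-0.94), and S1pr1 passed the fold threshold when libraries were centred on their median (-1.03). The 3 members called higher were Btla (1.45), an inhibitory receptor, Ccr9 (1.22), a gut-homing receptor that is also in the dendritic cell and pDC marker lists, and Id3 (1.21), an inhibitor of E proteins.

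**Figure D2:**
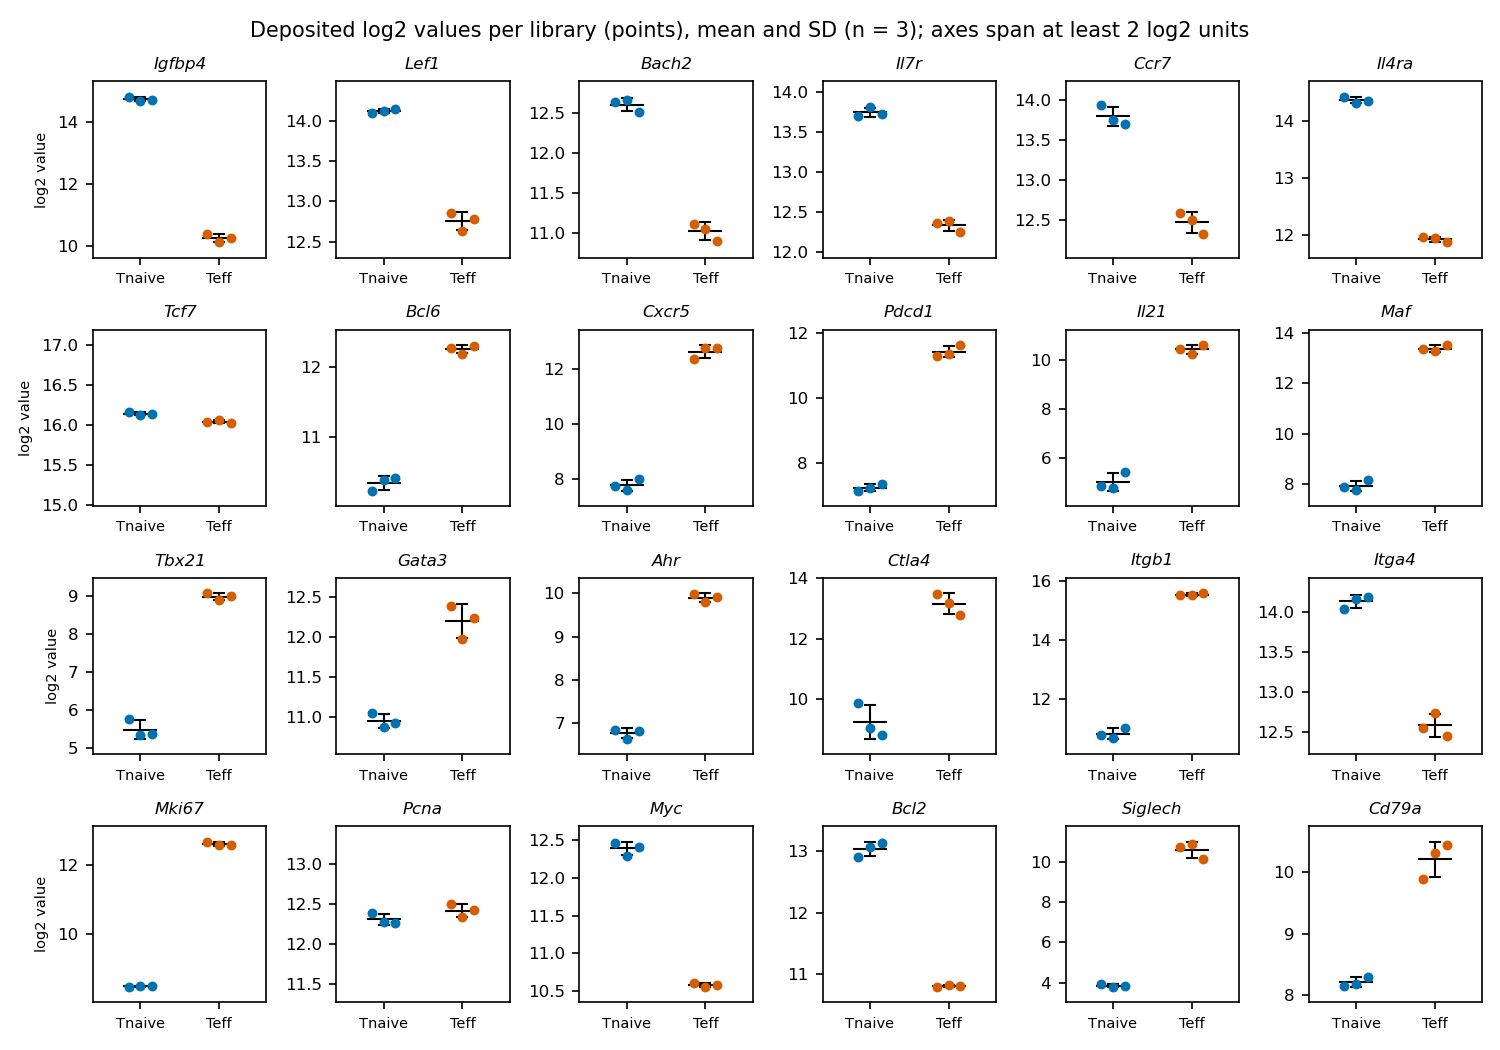
Deposited log2 values (y axes, each spanning at least 2 log2 units) of 24 genes in the 3 Tnaive and 3 Teff libraries, with points for libraries and bars for mean and SD. Igfbp4, Lef1, Bach2, Il7r and Ccr7 are lower in Teff with no overlap, and Tcf7 and Pcna differ by under 0.2. Siglech and Cd79a, markers of other cells, are higher in Teff, as are Cxcr5, Maf and Itgb1.

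Follicular helper genes gave the highest median of the lists of T helper types. Of 22 tested members 17 were higher and 0 lower, with a median log2 fold change of 2.36 (8.88% of all tested genes higher, median 0.0047). Cxcr5, the receptor that guides cells into the B cell follicle (chr9:44511787-44561877), had log2 values of 12.35, 12.75 and 12.78 in Teff and 7.77, 7.61 and 8.01 in Tnaive. The populations did not overlap and differed 28.4-fold (log2 fold change 4.83, SE 0.11, adjusted p = 4.55e-19). Bcl6, the lineage factor, had log2 values of 12.28, 12.19 and 12.30 in Teff and 10.22, 10.38 and 10.41 in Tnaive (log2 fold change 1.92, SE 0.088, adjusted p = 7.49e-14), and the inhibitory receptor Pdcd1 (PD-1) had log2 values of 11.30, 11.36 and 11.63 in Teff and 7.15, 7.24 and 7.34 in Tnaive (log2 fold change 4.19, SE 0.098, adjusted p = 9.1e-19). Il21, Maf and Tox2, given above, are members of the same list. Icos, a costimulatory receptor, rose by 3.29 on the log2 scale. B cell markers, which share the follicle, were also higher in Teff (median of 14 markers 2.31), and their part in the follicular result was not tested. The B cell marker Ms4a1 rose by 2.41, and Cd22, a regulator of the B cell receptor, by 4.32.

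Genes of type 1, type 2 and type 17 cells rose as well. Of 19 type 1 genes 12 were higher and 1 lower (median 2.20). Tbx21, which encodes T-bet, had log2 values of 9.06, 8.90 and 8.99 in Teff and 5.78, 5.34 and 5.37 in Tnaive (log2 fold change 3.49, SE 0.14, adjusted p = 1.25e-14), Ifng rose by 2.76 (25.9% of its exonic bases overlap Gm49751), and the IL-18 receptor subunit Il18rap by 4.18. The chemokine receptor Cxcr6 rose by 3.92, whereas Eomes, the relative of T-bet found in CD8 and NK cells, had log2 values of 7.76, 7.98 and 7.88 in Teff and 9.02, 9.03 and 9.33 in Tnaive and was lower (log2 fold change -1.25, SE 0.14, adjusted p = 1.01e-07). Of 14 type 2 genes 7 were higher and 1, Il4ra, was lower (median 0.95). Gata3 had log2 values of 12.39, 11.98 and 12.24 in Teff and 11.05, 10.88 and 10.92 in Tnaive (log2 fold change 1.25, SE 0.088, adjusted p = 8.37e-11), and Il4 had log2 values of 7.94, 8.47 and 8.64 in Teff and 4.65, 5.04 and 4.75 in Tnaive (log2 fold change 3.54, SE 0.14, adjusted p = 7.6e-15). The skin-homing receptor Ccr4 rose by 4.86 and the IL-25 receptor Il17rb by 3.89. Of 9 type 17 genes 7 were higher and 0 lower (median 2.30), among them the aryl hydrocarbon receptor Ahr, with log2 values of 9.99, 9.79 and 9.92 in Teff and 6.85, 6.65 and 6.82 in Tnaive (log2 fold change 3.13, SE 0.11, adjusted p = 1.1e-15), the chemokine receptor Ccr6 (2.71) and the IL-1 receptor Il1r1 (3.88).

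The cytokine genes themselves were more uneven. Of 42 listed, 32 were tested, and 17 of these were higher and 0 lower, with a median of 1.03. Beside Il21, Il4 and Ifng, Teff had more Il2 (1.33), the T cell growth factor, Il10 (1.36), Tnfsf14 (LIGHT, 3.90) and Csf1 (3.69), the macrophage growth factor. Cd40lg, the B cell helper ligand, differed by 0.10 (SE 0.091, adjusted p = 0.337). Other cytokine genes of type 2 and type 17 cells were under the filter. Il5 averaged 0.24 in Teff and 0.22 in Tnaive, Il13 2.80 and 2.49, Il17a 1.31 and 1.07, Il22 0.55 and 0.36, and Csf2 2.06 and 2.03. No test was made at such low values.

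**Figure D3:**
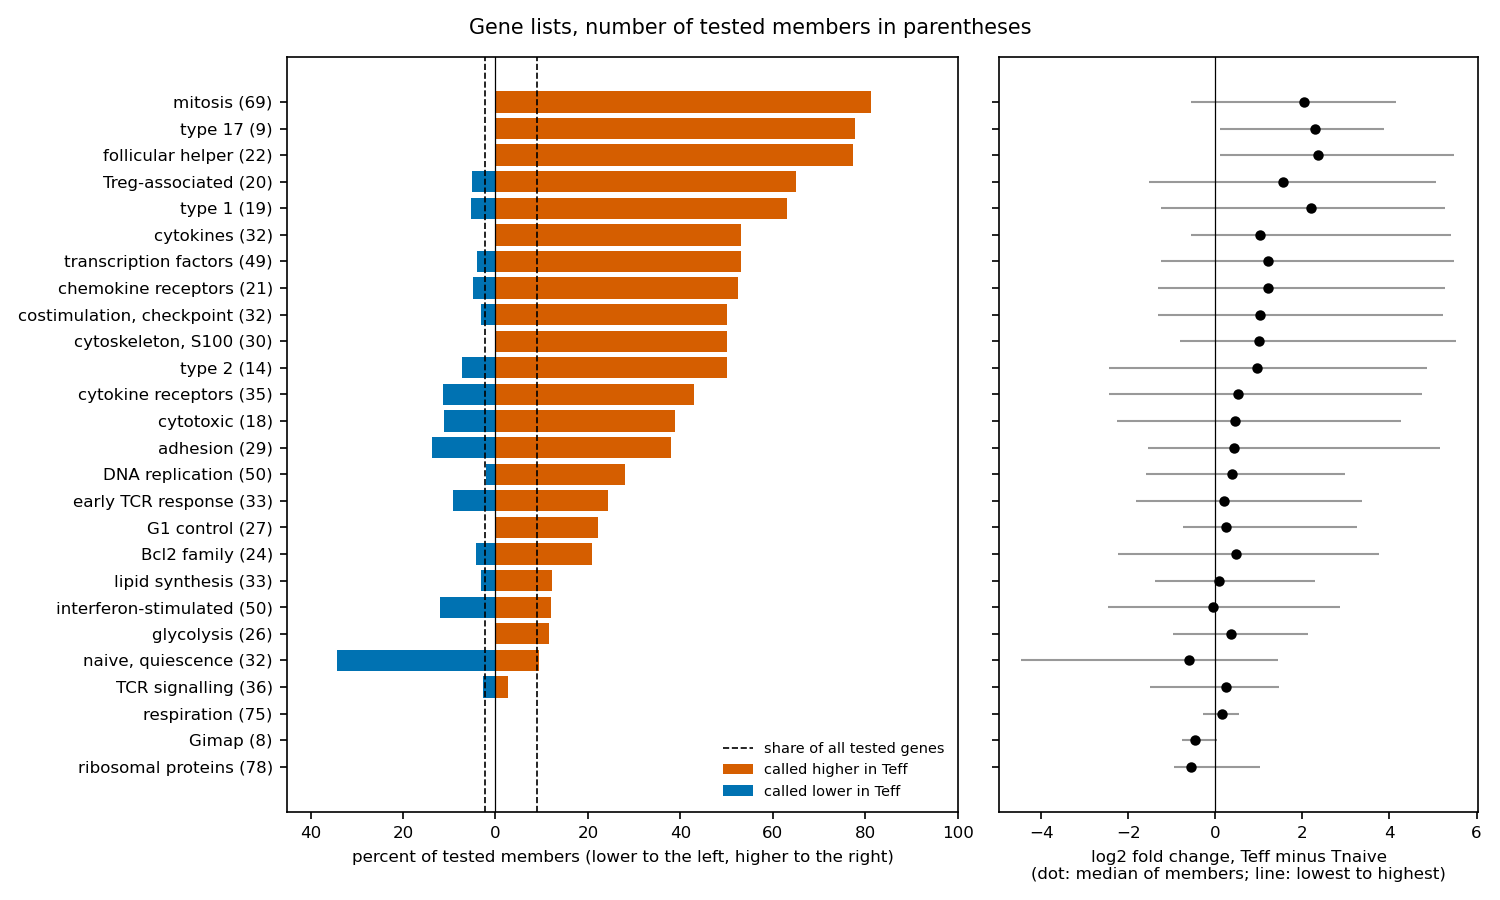
Left, percent of tested members of each gene list called higher (to the right) or lower (to the left) in Teff, with dashed lines at the shares of all tested genes, 8.88% and 2.28%. Right, the median log2 fold change (dot) and the lowest and highest member (line); mitosis, type 17 and follicular helper genes have the highest shares of members called higher, and the lists of ribosomal proteins, respiration and Gimap genes hold no called member.

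Inhibitory and costimulatory receptors were higher in Teff for 16 of 32 tested genes and lower for 1 (8.88% and 2.28% of all tested genes). Their median was 1.02. Ctla4 had log2 values of 13.48, 13.19 and 12.79 in Teff and 9.89, 9.05 and 8.83 in Tnaive (log2 fold change 3.90, SE 0.20, adjusted p = 3.77e-13), with replicate 1 highest in both populations. Tigit rose by 5.24, Lag3 by 4.81 and Havcr2 (TIM-3) by 2.56, all of them inhibitory receptors. Cd28 rose by 1.05, a call that was lost when libraries were centred (0.97). Tnfrsf25, the receptor for TL1A, was the member that fell (-1.31).

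Most genes commonly associated with Treg were higher in Teff, from which Timer+ cells had been gated away. Of 20 tested members 13 were higher and 1 lower (8.88% and 2.28% of all tested genes), and the median was 1.55. Ikzf2, which encodes Helios, had log2 values of 12.52, 12.39 and 12.43 in Teff and 7.68, 7.76 and 8.05 in Tnaive (log2 fold change 4.62, SE 0.078, adjusted p = 1.01e-20), Nrp1, a surface marker of thymic Treg, rose by 5.07, and Il2ra, the high-affinity IL-2 receptor chain, rose less (log2 fold change 1.73, SE 0.097, adjusted p = 1.86e-12). Nrp1 is also found on pDC. Ikzf4, which encodes Eos, fell, with log2 values of 7.14, 6.97 and 7.45 in Teff and 8.66, 8.78 and 8.66 in Tnaive (log2 fold change -1.51, SE 0.094, adjusted p = 1.08e-11), and Foxp3 differed by -0.81, under the fold threshold. Ikzf4 was lower in Teff than in each of the other 5 populations.

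Trafficking receptors changed in a selective way. Of 21 chemokine receptors 11 were higher and 1, Ccr7, was lower (8.88% and 2.28% of all tested genes), with a median of 1.22. The higher ones included Ccr2 (4.66), a receptor for inflammatory chemokines, beside Cxcr3, Cxcr5, Ccr4 and Ccr6. Of 29 adhesion genes 11 were higher and 4 lower (median 0.43). The β1 integrin gene Itgb1 had log2 values of 15.52, 15.50 and 15.57 in Teff and 10.80, 10.68 and 11.04 in Tnaive and rose 25.9-fold (log2 fold change 4.69, SE 0.078, adjusted p = 1.01e-20). Some of its α partners fell. Itga4 had log2 values of 12.55, 12.74 and 12.45 in Teff and 14.04, 14.16 and 14.19 in Tnaive (log2 fold change -1.55, SE 0.094, adjusted p = 7.62e-12), and Itga5 (-1.35) and Itga6 (-1.25) were lower too. The α chains Itga1, Itga2, Itga3 and Itgav were also tested, and their values are not given here. Fut7 (3.23) and Gcnt1 (5.17), enzymes that build selectin ligands, were higher, while the scaffold that carries those ligands, Selplg (PSGL-1), differed by -0.34. Itgax (4.77), the CD11c gene, is also a dendritic cell marker. Of 30 genes of the cytoskeleton and the S100 and annexin families 15 were higher and 0 lower (median 1.00), including Anxa2 (4.57) and the myosin Myo1f (4.95), with Lgals1 at 1.86 and Vim at 0.46.

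Cytokine receptors split. Of 35, 15 were higher and 4 lower (8.88% and 2.28% of all tested genes), with a median of 0.51. Il2rb, shared by the IL-2 and IL-15 receptors, had log2 values of 13.83, 13.82 and 13.86 in Teff and 10.24, 9.92 and 10.12 in Tnaive (log2 fold change 3.74, SE 0.066, adjusted p = 1.67e-20), and Il9r (4.75) and Csf2rb (4.75) had the largest rises. Csf2rb is the shared chain of the IL-3, IL-5 and GM-CSF receptors, which myeloid cells carry too. The lower members included Il7r, Il4ra and Ifngr2 (-1.47), the signalling chain of the interferon-γ receptor.

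Few genes of T cell receptor signalling passed the fold threshold, and their transcriptional targets moved in both directions. In the signalling list 1 of 36 was higher, Malt1 (1.47), and 1 lower, Txk (-1.50), with Lck at 0.083, Zap70 at 0.64 and Lat at -0.16. Without the fold threshold, 21 of the 36 were higher and 11 lower (31.3% and 27.7% of all tested genes). Of 33 early response genes 8 were higher and 3 lower (8.88% and 2.28% of all tested genes), with a median of 0.19. Irf4, which scales with receptor signal, had log2 values of 13.31, 13.14 and 13.24 in Teff and 10.28, 9.55 and 9.74 in Tnaive (log2 fold change 3.37, SE 0.12, adjusted p = 1.72e-15), and the factors Egr2 (1.69) and Egr3 (1.38), which limit activation, and Spry1 (2.25) and Dusp4 (2.06), inhibitors of MAP kinase signalling, were higher as well. Nr4a1, the immediate reporter of receptor signalling, had log2 values of 12.34, 11.91 and 11.78 in Teff and 12.66, 12.43 and 12.10 in Tnaive (log2 fold change -0.38, SE 0.16, adjusted p = 0.0452). Myc, the growth regulator, fell, with log2 values of 10.61, 10.55 and 10.58 in Teff and 12.47, 12.29 and 12.42 in Tnaive (log2 fold change -1.81, SE 0.069, adjusted p = 3.09e-15), and Jun fell by 1.09 on the log2 scale, a call that quantile normalisation removed (-0.99). Of 49 transcription factors of effector cells 26 were higher and 2 lower (median 1.20). Runx2 (4.99) and Zeb2 (2.97) were among the higher ones, and Runx2 is also in the pDC list. Prdm1, which encodes Blimp-1, had log2 values of 8.86, 8.82 and 8.85 in Teff and 8.79, 8.78 and 8.79 in Tnaive and did not pass (log2 fold change 0.055, adjusted p = 0.576), and its sign turned to -0.03 on centring and -0.11 on quantile normalisation.

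Of the 27 functional lists, the one of mitosis genes had the highest share of called members. Of 69 mitosis genes 56 were higher and 0 lower (median 2.05). Mki67, the proliferation antigen (chr7:135689784-135716361), had log2 values of 12.69, 12.59 and 12.59 in Teff and 8.46, 8.50 and 8.49 in Tnaive and was 17.6-fold higher (log2 fold change 4.14, SE 0.075, adjusted p = 2.46e-20). The spindle motor Kif11 had log2 values of 10.38, 10.36 and 10.48 in Teff and 7.16, 6.61 and 6.79 in Tnaive (log2 fold change 3.55, SE 0.14, adjusted p = 5.37e-15). Tpx2 (3.66), Ccnb1 (3.10), Cdk1 (2.99) and Top2a (2.84), all of them needed for mitotic entry or chromosome segregation, rose too. Fewer DNA replication genes were called. Of 50, 14 were higher and 1 lower (median 0.39), and 32 were higher and 4 lower without the fold threshold (31.3% and 27.7% of all tested genes). Rrm2, the regulated subunit of ribonucleotide reductase, had log2 values of 10.38, 10.23 and 10.41 in Teff and 7.79, 6.81 and 7.45 in Tnaive (log2 fold change 2.99, SE 0.18, adjusted p = 6.48e-12), and Uhrf1, which maintains DNA methylation at the fork, had log2 values of 10.70, 10.68 and 10.82 in Teff and 7.91, 7.74 and 8.05 in Tnaive (log2 fold change 2.84, SE 0.11, adjusted p = 2e-15). In contrast, the polymerase clamp Pcna had log2 values of 12.49, 12.33 and 12.42 in Teff and 12.38, 12.27 and 12.26 in Tnaive (log2 fold change 0.11, adjusted p = 0.11), and Pole2, a subunit of the leading-strand polymerase, had log2 values of 8.56, 8.46 and 8.64 in Teff and 10.13, 10.10 and 10.24 in Tnaive and was lower (log2 fold change -1.60, SE 0.089, adjusted p = 1.69e-12). Mcm5 (0.95) and Mcm6 (1.17), parts of the replicative helicase, stood on either side of the fold threshold, and Mcm5 passed it without replicate 2 of Teff (1.01) or replicate 1 of Tnaive (1.004). Of 27 genes of G1 control 6 were higher and 0 lower (8.88% and 2.28% of all tested genes). E2f8 (3.24), the CDK inhibitor Cdkn2c (2.10) and Ccnd1 (2.82) were among the higher ones. The lymphocyte D cyclins Ccnd2 (-0.41) and Ccnd3 (-0.48) were not called.

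The replication and mitosis lists moved by different amounts, and whether promoter words bear on this was not tested. Their promoters are described by the short words known from each class. These are E2F sites (TTGGCGC or TTCCCGC) in replication genes and the cell cycle homology region CHR (TTTGAA) in mitosis genes. Windows of 250 bases before to 50 after the start were searched on both strands, and TTGGCGC can overlap a reversed CCAAT box. An E2F word was present in 22 of 41 replication promoters (53.7%), 11 of 53 mitosis promoters (20.8%) and 12.3% of the promoters of tested genes. A CHR word was present in 36 of 53 mitosis promoters (67.9%), 6 of 41 replication promoters (14.6%) and 12% of those of tested genes, and CCAAT in 67.9%, 58.5% and 38.8%. Among all 27025 promoters in the table the shares were 6.93% for E2F, 18.1% for CHR and 37.9% for CCAAT. Naive-state genes had E2F in 1 of 27, CHR in 3 of 27 and CCAAT in 10 of 27. A match is a description of the sequence, not a site of binding.

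The promoters below are the 150 bases before the start (RefSeq, GRCm38.p6, 5′ to 3′ on the gene's strand) of the 3 replication genes and 3 mitosis genes with the largest rise whose word lies within that stretch. Capitals mark the E2F word, on either strand, in Uhrf1 (chr17:56303187-56303336, plus strand), Chaf1a (chr17:56040266-56040415, plus strand) and Cdc6 (chr11:98908001-98908150, plus strand), and the CHR word, on either strand, in Mki67 (chr7:135716380-135716529, minus strand), Kif11 (chr19:37376232-37376381, plus strand) and Espl1 (chr15:102296143-102296292, plus strand).
Uhrf1: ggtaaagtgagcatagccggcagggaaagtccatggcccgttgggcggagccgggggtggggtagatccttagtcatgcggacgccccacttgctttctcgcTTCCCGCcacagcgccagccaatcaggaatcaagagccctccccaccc
Chaf1a: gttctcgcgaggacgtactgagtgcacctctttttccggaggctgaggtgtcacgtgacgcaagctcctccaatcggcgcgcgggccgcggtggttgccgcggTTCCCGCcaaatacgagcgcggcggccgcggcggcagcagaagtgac
Cdc6: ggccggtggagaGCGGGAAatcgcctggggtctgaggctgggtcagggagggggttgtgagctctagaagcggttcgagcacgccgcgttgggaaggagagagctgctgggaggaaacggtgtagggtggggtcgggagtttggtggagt
Mki67: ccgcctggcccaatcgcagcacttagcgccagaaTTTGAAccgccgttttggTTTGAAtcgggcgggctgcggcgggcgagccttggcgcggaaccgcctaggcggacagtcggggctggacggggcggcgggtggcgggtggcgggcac
Kif11: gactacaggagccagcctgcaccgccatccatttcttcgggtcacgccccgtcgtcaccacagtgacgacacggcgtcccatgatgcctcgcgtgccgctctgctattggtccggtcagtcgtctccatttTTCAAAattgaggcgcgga
Espl1: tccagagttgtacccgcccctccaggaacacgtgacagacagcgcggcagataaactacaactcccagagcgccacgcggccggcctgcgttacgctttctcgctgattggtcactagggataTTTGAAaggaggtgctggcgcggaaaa
The log2 fold changes of these genes were 2.84, 2.54 and 2.14 for the replication genes and 4.14, 3.55 and 3.39 for the mitosis genes, in the order given. Mki67 holds its word at 2 places, 98 and 116 bases before the start.

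Most metabolic genes were not called, like most tested genes (8.88% called higher and 2.28% lower). Of 26 glycolysis genes 3 were higher, Hk2 (2.14), Aldoc (1.24) and Tpi1 (1.13), and 0 lower, and the call of Aldoc was lost on quantile normalisation (0.82). Hk2 encodes the inducible hexokinase of the first step. Gapdh differed by 0.81 (1.01 after quantile normalisation), Ldha by 0.54, Pkm by 0.38 and the glucose transporter Slc2a1 by -0.12. None of 75 genes of mitochondrial respiration was called by limma with the fold threshold, while 36 were higher and 6 lower without it (31.3% and 27.7% of all tested genes), with a median of 0.15 that centring took to 0.067. For lipid synthesis 4 of 33 were higher and 1 lower. The desaturases Scd1 (2.29), Scd2 (1.50) and Fads2 (1.37) rose. Ribosomal protein genes had 0 of 78 called with the fold threshold, but 76 of 78 were lower at adjusted p under 0.05 alone (27.7% of all tested genes), with a median of -0.57. The median was -0.65 after centring and -0.27 after quantile normalisation, with 59 lower.

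Of 24 genes of the Bcl2 family and of cell death, 5 were higher and 1 lower (8.88% and 2.28% of all tested genes), with a median of 0.47, and 3 of the 5 were near-identical copies of Bcl2a1. Bcl2, the anti-apoptotic gene maintained by IL-7, had log2 values of 10.79, 10.83 and 10.82 in Teff and 12.91, 13.07 and 13.14 in Tnaive and was 4.68-fold lower (log2 fold change -2.23, SE 0.10, adjusted p = 5.22e-14). Its relatives Bcl2a1d (3.76), Bcl2a1b (3.18) and Bcl2a1a (3.05) were higher, although reads of these near-identical copies cannot be assigned with certainty. Bcl2l11, which encodes the pro-apoptotic BIM, differed by 0.69 and Fas by 0.03, the latter with its sign turned on centring (-0.05) and on quantile normalisation (-0.03). Of 8 Gimap genes, GTPases of lymphocyte survival, 0 passed the fold threshold and 6 were lower without it, against 27.7% of all tested genes.

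Of 50 interferon-stimulated genes 6 were higher and 6 lower (median -0.054), against 8.88% and 2.28% of all tested genes. Mx1, an antiviral GTPase, had log2 values of 9.92, 10.22 and 10.68 in Teff and 7.61, 7.83 and 8.68 in Tnaive (log2 fold change 2.24, SE 0.30, adjusted p = 1.49e-06), and Ifitm2 (2.86) and Ifitm1 (2.14), membrane proteins that restrict viral entry, were higher. Ifitm2 shares 40.9% of its exonic bases with Gm45717 on the same strand, so its value is uncertain. Oas2 (-1.95) and Tgtp1 (-1.94) were lower, the latter with a close copy in Tgtp2. Ifit3 had log2 values of 9.71, 10.40 and 10.70 in Teff and 9.87, 10.12 and 10.85 in Tnaive (log2 fold change -0.0074, adjusted p = 0.986). Replicate 3 was highest in both populations for Mx1 and Ifit3, so the spread of these genes followed the replicate number.

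Of 18 tested cytotoxic genes, 7 were higher and 2 lower (8.88% and 2.28% of all tested genes), with a median of 0.45. Gzmb had log2 values of 6.93, 7.32 and 7.48 in Teff and 5.11, 5.31 and 5.14 in Tnaive (log2 fold change 2.06, SE 0.17, adjusted p = 1.44e-09), and Stx11 (4.26) and Nkg7 (2.83), genes of granule release, rose. Prf1, the pore former, had log2 values of 7.26, 7.61 and 7.25 in Teff and 9.50, 9.74 and 9.68 in Tnaive and was 4.82-fold lower (log2 fold change -2.27, SE 0.14, adjusted p = 8.11e-12). Ctsw fell by 1.03 on the log2 scale and Gzma rose by 1.22. Ctsw lost its call without replicate 1 of Teff (-0.997) and Gzma on quantile normalisation (0.95).

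Genes that set Teff or Tnaive apart from all other populations were then counted. Teff was higher than each of the other 5 for 256 genes (1.94%) and lower for 17 (0.129%). Marker lists of other cell types held 47 of the 256 genes, and without marker genes 209 remained. The pDC list, written after values had been seen, held 16 of the 256. Among the 8 with the widest margin over the other 5 were Siglech, Il21, Mpeg1, Csf2rb2, Adam11, Klk1 and Tyrobp. Of these, Siglech and Klk1 are in that pDC list, and Mpeg1 and Tyrobp are in the myeloid list. Il21 averaged 10.43 ± 0.18 (SD, n = 3) in Teff and 5.01 ± 0.36 in Tnaive, and among the Timer+ populations it ran from 4.12 ± 0.25 in Pers2 to 4.68 ± 0.13 in Arrested. Siglech averaged 10.62 ± 0.41 in Teff, and Pers1 was the highest of the Timer+ populations with 4.30 ± 0.28. Of the 22 follicular genes 8 were higher in Teff than in each other population, namely Bcl6, Cxcr5, Il21, Tox2, Pou2af1, Cd200, Angptl2 and Gpm6b. Cxcr5 averaged 12.63 ± 0.24 in Teff and 10.05 ± 0.12 in Pers1.

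Tnaive was higher than each of the other 5 for 60 genes (0.455%) and lower for 485 (3.68%). Of the 60, 5 were in the naive list, Lef1, Il7r, Satb1, Dapl1 and Igfbp4. The 8 with the widest margin were Ggt5, Pdlim4, Adamts14, Tmie, Myo10, Lypd6b, Tspan9 and Als2cl. Tspan9 averaged 11.60 ± 0.032 in Tnaive, 7.78 ± 0.50 in Teff and 9.36 ± 0.11 in Arrested. Genes lower in Tnaive than everywhere else included 42 of the 69 mitosis genes, with Mki67 at 8.48 ± 0.019 in Tnaive, 11.63 ± 0.12 in Arrested, 12.62 ± 0.058 in Teff and 14.54 ± 0.11 in Pers2. They also included 13 of 20 Treg-associated genes, such as Ctla4, with 9.25 ± 0.56 in Tnaive, 13.15 ± 0.35 in Teff, 13.42 ± 0.26 in Arrested and 15.38 ± 0.066 in Pers2.

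**Figure D4:**
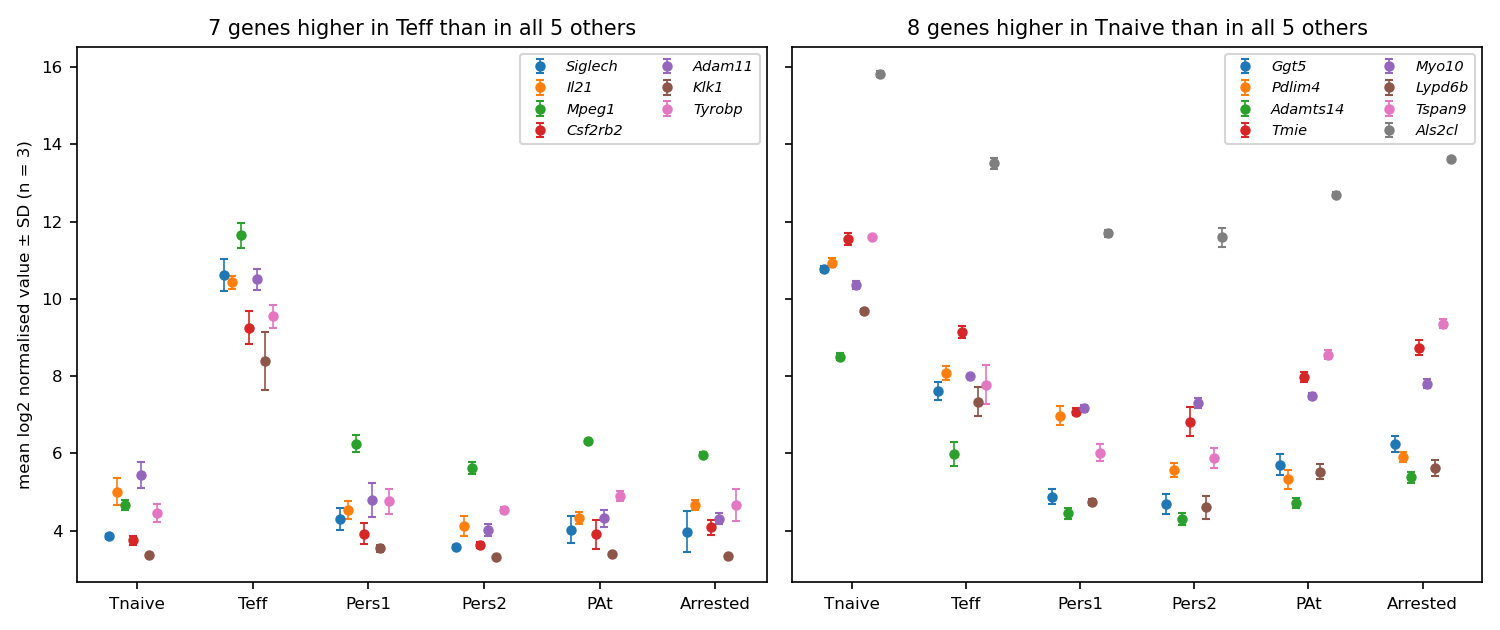
Mean log2 normalised value with SD (n = 3) in each of the 6 populations (x axis) for 7 of the 8 genes highest in Teff by the widest margin (left) and the 8 highest in Tnaive (right). By the rule that chose them, each gene stands apart from the other 5 populations by more than 1 log2 unit in its own population.

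The difference between Teff and Tnaive was also set against a contrast among Foxp3 expressors, the mean of Pers1 and Pers2 minus the mean of PAt and Arrested, which shares no library with it. That contrast called 625 genes higher in Pers1 and Pers2 and 365 lower. Of the genes higher in Teff, 372 were also higher there (31.8% of the Teff list and 59.5% of the other), and of the genes lower in Teff, 116 were also lower there (38.5% and 31.8%). A further 41 were called in opposite directions. The difference of the differences was called for 910 genes with a larger value in Teff minus Tnaive (6.90%) and 200 with a smaller one (1.52%). Of 22 follicular genes 14 had a larger value, and their medians were 2.36 in the conventional comparison and -0.06 among Foxp3 expressors. Mitosis genes had medians of 2.05 and 2.36, and 6 of 69 had a smaller value and 1, Mki67, a larger one. Replication genes had medians of 0.39 and 1.34, with 15 of 50 smaller and 1 larger. Pcna was among the smaller ones (1.20 among Foxp3 expressors against 0.11, difference -1.09, SE 0.071, adjusted p = 4.69e-11).

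**Figure D5:**
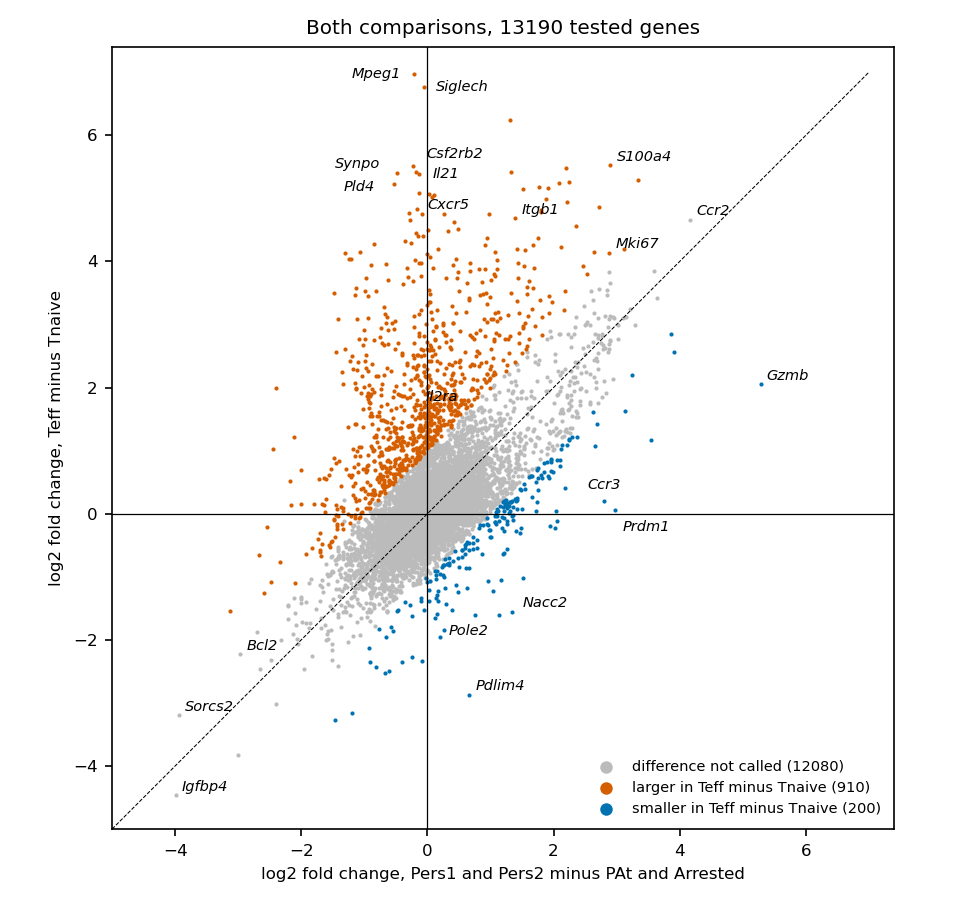
Log2 fold change between Teff and Tnaive (y axis) against that of Pers1 and Pers2 minus PAt and Arrested (x axis) for 13190 tested genes, with genes whose 2 values differ past the threshold in colour and a dashed line of equal values. Siglech, Mpeg1 and Il21 lie high on the y axis near 0 on the x axis, and Gzmb, Prdm1 and Pole2 lie below the line.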

How the data were processed

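RNA was sequenced from Teff and Tnaive and from 4 Timer+ populations, with 3 libraries each, made with a stranded mRNA kit from FACS-sorted cells. For 15402 genes the authors deposited normalised counts on a log2 scale, which look like the output of a regularised log transform. Such a transform shrinks differences between libraries where reads are few. The submitters' processing notes name CASAVA 1.8.2, FastQC 0.11.2, TopHat2 2.0.9, DESeq2 and the build mm10, and whether counting used strand is not given in the sources used here. No read counts were used here. The depth is therefore unknown, and precision rests on the spread between 3 replicates, each from pooled mice.

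The values were used as deposited. The 13190 genes with a mean of 3 or more were tested and 2212 left out, and 22 date-like symbols are not named. One model of the 6 populations was fitted with limma 3.58.1 in R 4.3.3 (trend, 12 residual degrees of freedom, Benjamini-Hochberg adjustment), and all adjusted p-values come from it. It was tested on simulated data. Gene lists were described by counts and medians, without a set test. No value column lacked a sample (0 unmapped). Figures were drawn with matplotlib 3.10.9 in Python 3.11.15. Coordinates came from GENCODE on GRCm38 and promoters from RefSeq, matched by symbol, with 9938 of the tested genes found.

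The members and lists were chosen with earlier results of these data known. Named genes were the 12 highest and 12 lowest called fold changes without overlap (predicted genes and receptor segments left out), up to 3 called members each way and the key members of each list, the 8 genes most particular to each population, and the 6 largest differences of differences each way. Espl1, Chaf1a and Cdc6 were added by their promoter words, and genes listed as particular to a population by list, members under the filter and some further markers were named after their values were seen, as was the pDC list. Some genes that the rule names are not reported here. Alternatives changed the filter, the thresholds, the scaling and the samples.

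The replicate numbers were taken to pair the libraries, since the series describes the populations as sorted from the same animals, although neither source states that a number marks 1 pool. Deviations from the population means correlated at 0.194, 0.0772 and 0.231 between Teff and Tnaive libraries of the same number, and from -0.181 to -0.0306 between those of different numbers. Each mean was taken over the same libraries, so positive values for equal numbers bring negative ones on average for different numbers. The negative range is therefore no separate evidence of pairing.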

Additional observations from a re-analysis of the deposited data

Results flagged for a closer look

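The difference between Teff and Tnaive was not the same as the one between Pers1 and Pers2 and the other Timer+ populations for many genes, by a test of the difference itself in limma. It was larger for 910 genes (847 without marker genes of other cell types) and smaller for 200 (196 without them). Those marker genes include the pDC list written after values had been seen. The largest positive differences of log2 fold changes were those of Mpeg1 (7.18, SE 0.18), Siglech (6.83, SE 0.27), Synpo (5.89, SE 0.13), Pld4 (5.76, SE 0.20), Csf2rb2 (5.73, SE 0.23) and Il21 (5.59, SE 0.20). Mpeg1, Siglech and Pld4 are in the marker lists of myeloid cells or pDC, and the part of such RNA was not tested.

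The largest negative ones were those of Pdlim4 (-3.52, SE 0.18), Gzmb (-3.23, SE 0.21), Prdm1 (-2.91, SE 0.098), Nacc2 (-2.89, SE 0.17), Pole2 (-2.73, SE 0.11) and Ccr3 (-2.61, SE 0.20). For Gzmb the log2 fold change was 2.06 between Teff and Tnaive and 5.28 among Foxp3 expressors. Prdm1, the Blimp-1 gene, had 0.055 and 2.97, and the polymerase subunit Pole2 had -1.60 and 1.13, values of opposite direction. Pdlim4 was lower in Teff (-2.87) and had 0.66 among Foxp3 expressors.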

How the results depend on the processing

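Without the fold threshold, 4135 genes were higher and 3650 lower in Teff, and 428 and 213 members of the functional lists. Beyond a log2 fold change of 2 the counts were 464 and 28. When the fold itself was tested (limma treat), 849 genes were higher and 132 lower, and after quantile normalisation 942 and 550. In each of these the cause is the setting's own construction, except for quantile normalisation, for which the cause was not tested. The other counts moved by less than 1.5 times: 1181 higher and 301 lower with no filter, 944 and 282 at a mean of 6 or more, 1171 and 303 from the 6 libraries alone, 1171 and 301 without the trend, 1058 and 379 with libraries centred on their median. With the replicate block the counts were 1171 and 302, those of genes particular to a population and of the difference of differences were as without it, and 0 of the 203 named genes changed their call. The list counts were not run with the block. Leaving out 1 library in turn gave 1164 to 1181 higher and 290 to 314 lower, 252 to 260 genes higher in Teff than in all others, 58 to 62 higher in Tnaive, and 905 to 929 and 198 to 221 for the difference of differences. Of 159 called genes among the 203 named, 11 lost the call under at least 1 of 13 alternatives and 4 uncalled ones gained it, and 0 called values changed sign. The depth of the libraries is unknown, and genes with few reads may have folds drawn toward 0, so a missed call is no sign of equal expression.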

Other observations

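The 17 genes lower in Teff than in each of the other 5 populations were chosen after their values were seen and are given as values only. Ikzf4 had the difference nearest to 0 against any other population at -1.51, Ecm1, which encodes an extracellular matrix protein, at -1.41, Rcn1, a calcium-binding protein of the endoplasmic reticulum, at -1.44, Stx1a at -1.22, Ndrg1 at -1.18, Gata1, the factor of erythroid cells, at -1.18, and Igf2r, the receptor for mannose 6-phosphate, at -1.09. Ecm1 averaged 9.42 ± 0.033 in Teff, 10.83 ± 0.085 in Tnaive and 11.59 ± 0.085 in Pers1 (SD, n = 3).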
